A study of Mus musculus with 6 samples.

Results

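The Jun peaks described here lie in windows around genes of matrix metalloproteinases (MMPs): a cluster on chromosome 9 with Mmp13, Mmp12, Mmp3, Mmp10 and Mmp8, the Mmp9 gene on chromosome 2 and the Mmp14 gene on chromosome 14. They were chosen by position alone, in windows that were set with earlier results of these data known. A peak was taken when its midpoint lay in chr9:7200001-7700000, in chr2:164740001-164820000 or in chr14:55020001-55090000 on the mouse genome build mm9. Of the 99162 peaks in the list, 20 met this rule: 8 in the cluster, 3 in the Mmp9 window and 9 in the Mmp14 window. The cluster was further divided at position 7330000 into the Mmp13 part, with 2 peaks, and the rest, with 6.

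The peaks come from 1 ChIP-seq library for Jun, prepared beside 1 input DNA library. Both were made from untreated chondrocytes freshly isolated by enzyme digestion from the rib cartilage of wild-type ICR mice at postnatal day 1. The 4 RNA-seq libraries of the series, from Col10a1mCherry reporter mice, were not analysed here, so no expression level of any Mmp gene stands beside the peaks. The series asks how AP-1 factors such as Jun act together with Sox9, the transcription factor of cartilage formation, when chondrocytes become hypertrophic. There was no ChIP replicate, the read depth is unknown, and the list carries no peak height. Differences between the windows therefore have no replicate check, and no test was made. Without expression values the labelled cell type was not checked against its markers.

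MMPs are zinc-dependent proteases that cut the proteins of the extracellular matrix. In the growth plate, cartilage matrix is broken down at the zone of hypertrophic chondrocytes before bone replaces it, and Mmp13 and Mmp9 are the best known enzymes of that step. Mmp13 and Mmp8 are collagenases, Mmp3 and Mmp10 are stromelysins, Mmp12 is the macrophage elastase, Mmp9 is a gelatinase of osteoclasts and related cells, and Mmp14 is a collagenase held in the cell membrane. Jun is a subunit of AP-1, a dimer with Fos or other Jun proteins that binds the sequence TGAGTCA. The motif searched here, TGANTCA, is wider and leaves the middle base open. Several MMP genes are textbook AP-1 targets.

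The sequence TGANTCA was looked up in the promoters of the family, because it includes the sequence that Jun as part of AP-1 recognises. RefSeq promoters on build GRCm38.p6, each with 250 bases before and 50 bases after a start site, matched 6 of the 7 members. No promoter of Mmp9 was listed, so Mmp9 was not searched. TGANTCA was present in the promoters of Mmp13, Mmp12, Mmp3 and Mmp10, and not in those of Mmp8 and Mmp14. Of all 32851 promoters in the RefSeq table, 7.81% held it. In RefSeq order the cluster runs Mmp13, Mmp12, Mmp1b, Mmp3, Mmp1a, Mmp10, Mmp8, Mmp27, Mmp20 and Mmp7. Of these 10 genes 8 had a promoter with the motif, and 2, Mmp8 and Mmp27, did not. A gene was counted when any of its promoters held the motif, whereas the 7.81% is a share of promoters. Of the 13 other Mmp genes 8 had a promoter in the table and none of these held it, nor did any of the 4 Timp genes, which encode inhibitors of MMPs. These are counts of letters in short windows, and no match says only that the letters are not in that window. The 8 matches and 15 bases on either side are shown 5′ to 3′ in the direction of the gene, with the motif in capitals. On GRCm38.p6 they lie on chromosome 9 between 7272464 and 7692048.
Mmp13: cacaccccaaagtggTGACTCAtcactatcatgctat
Mmp12: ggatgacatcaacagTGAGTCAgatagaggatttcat
Mmp1b: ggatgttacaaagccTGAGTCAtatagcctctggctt
Mmp3: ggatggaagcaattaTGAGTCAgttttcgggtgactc
Mmp1a: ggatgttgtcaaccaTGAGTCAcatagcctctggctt
Mmp10: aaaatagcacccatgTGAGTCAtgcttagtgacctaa
Mmp20: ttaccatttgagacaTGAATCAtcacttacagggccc
Mmp7: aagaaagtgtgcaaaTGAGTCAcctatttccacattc

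The first base of the motif lay 35 bases before the start site in Mmp13, 44 in Mmp12, 46 in Mmp3, 63 in both Mmp10 and Mmp7, 73 in Mmp1a, 93 in Mmp1b and 95 in Mmp20. All 8 were thus within 100 bases of a start site. In Mmp12 the motif was before the second of its 2 RefSeq start sites, and in Mmp7 before the first of 2. The core was TGAGTCA, read on either strand, in 7 of the 8 genes. The Mmp20 match, TGAATCA, differed from that core, which 5.20% of all promoters held. Mmp13 is shown whole, since it is the collagenase of hypertrophic cartilage, and Mmp14 because its window had the most peaks. Both are the 250 bases before the start site on the + strand of GRCm38.p6, at chr9:7272264-7272513 for Mmp13 and chr14:54431348-54431597 for Mmp14. Capitals mark TGANTCA.
Mmp13: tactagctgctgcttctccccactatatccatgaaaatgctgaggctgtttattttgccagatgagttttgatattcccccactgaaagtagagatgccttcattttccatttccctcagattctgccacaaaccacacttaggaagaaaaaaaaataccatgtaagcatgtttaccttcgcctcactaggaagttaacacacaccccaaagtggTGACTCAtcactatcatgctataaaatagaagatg
Mmp14: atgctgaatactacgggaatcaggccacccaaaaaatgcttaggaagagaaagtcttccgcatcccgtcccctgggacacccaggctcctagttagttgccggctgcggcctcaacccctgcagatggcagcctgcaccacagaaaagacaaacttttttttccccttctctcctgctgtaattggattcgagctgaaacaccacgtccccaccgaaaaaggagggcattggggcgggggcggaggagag

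Positions of this build cannot be set against the mm9 peaks, so whether a peak covers any of these promoters was not determined. Other motifs were searched on both strands. TGTGGT, the site of Runx factors, was found in the promoters of Mmp13 and Mmp14, against 16.8% of all promoters. AGGAAG, an Ets site, was found in 5 of the 6 matched members (Mmp13, Mmp12, Mmp3, Mmp8 and Mmp14), against 35.4%. The Sox sequence ACAAAG was found in 3 members (Mmp12, Mmp10 and Mmp8), against 18.7%, and ACAATG in Mmp12, against 12.6%. In Mmp12, AGGAAG and ACAAAG were in the promoter of the first RefSeq start site, TGANTCA in that of the second, and ACAATG in both. No Mmp or Timp promoter held the CRE sequence TGACGTCA, which 1.79% of all promoters held.

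**Figure D1:**
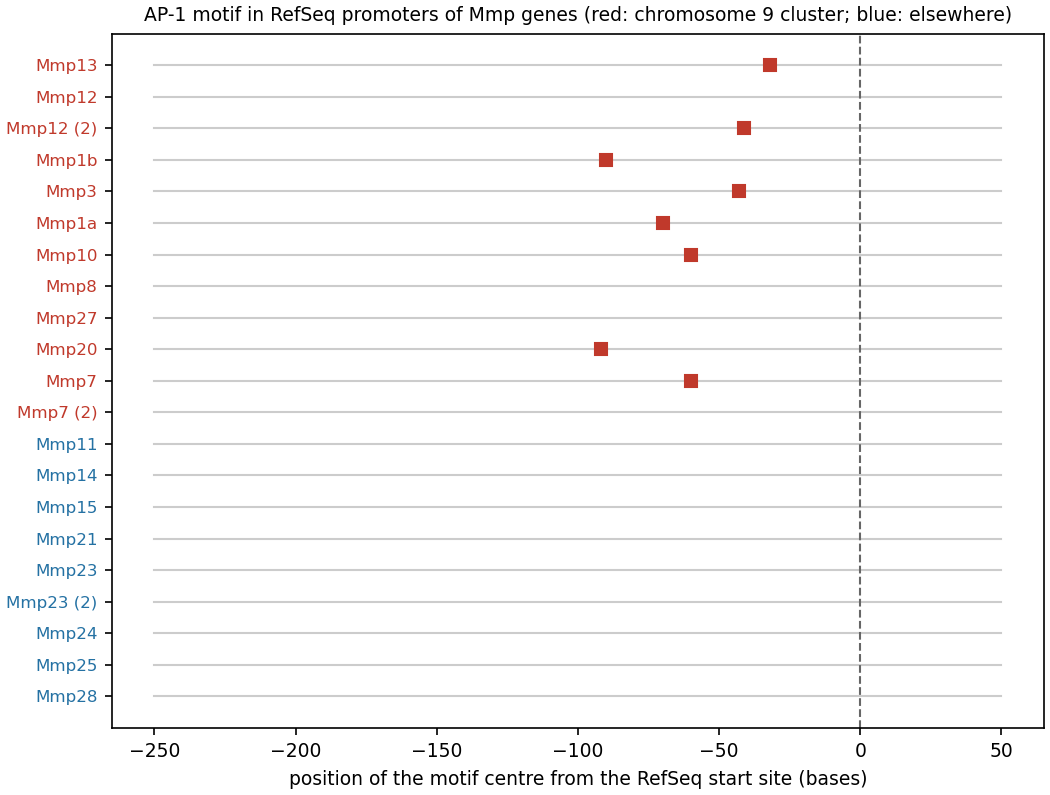
Position of the AP-1 motif (squares, motif centre) in the RefSeq promoters of Mmp genes, as bases from the start site (dashed line); grey lines span each promoter, red marks genes of the chromosome 9 cluster in RefSeq order, blue marks Mmp genes elsewhere, and (2) marks a second start site. The 8 promoters with the motif, TGANTCA, are all of cluster genes, and that of Mmp20 has TGAATCA.

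The Mmp13 part of the cluster held 2 Jun peaks. Its first peak lay at chr9:7238694-7238931 and was 238 bp wide. The second lay at chr9:7261804-7261907 and was 104 bp wide, with 23.0 kb between the peak centres. These 2 peaks in 130 kb gave 1.54 peaks per 100 kb (exact Poisson 95% interval 0.186 to 5.56, counting error only). Of the 19679 tiles of 130 kb that cover chromosomes 1 to 19 and X between their first and last peaks, 56.2% held at least 2 peaks, and the median tile held 2. On chromosome 9 alone, 66.5% of the tiles held at least 2 and the median was 4. The number of Jun peaks in the Mmp13 part was thus close to that of the median tile of this length.

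The 238 bp peak was the widest of the 20, and only 10.5% of all peaks in the list were as wide. No other peak lay within 10 kb of either. Toward the rest of the cluster, 76.9 kb passed between centres before the next peak, a distance that 5.68% of all neighbouring peaks in the list reached or exceeded.

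The rest of the cluster, with Mmp12, Mmp3, Mmp10 and Mmp8, held 6 peaks in 370 kb. The first of them, chr9:7338674-7338771, measured 98 bp and stood alone. It was followed by 171 kb with no peak, a distance between centres that 2.04% of all neighbouring pairs reached. After it came the only group of the cluster, 3 peaks within 8.44 kb. These were chr9:7509744-7509871 (128 bp), chr9:7510057-7510114 (58 bp) and chr9:7518071-7518185 (115 bp). The first 2 were 185 bases apart, and no pair among the 20 peaks was closer.

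The remaining peaks of the cluster were chr9:7595325-7595414 (90 bp) and chr9:7673119-7673236 (118 bp), each more than 70 kb from its nearest neighbour. The first lay 77.2 kb from the group of 3 and the second 77.8 kb further on, between centres. The cluster was therefore a stretch of mostly lone peaks: 5 of its 8 peaks (62.5%) had no other peak within 10 kb, against 19.3% of all peaks in the list. Equally sparse tiles were not compared, so this share cannot be told apart from the low peak density of the cluster.

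The peak densities of the Mmp13 part and of the rest of the cluster differed by less than their counting error. The rest had 1.62 peaks per 100 kb (0.595 to 3.53), and 45.1% of the 6902 tiles of 370 kb held 6 peaks or fewer, with a median of 9. In peaks per kb, the Mmp13 part had 0.949 times the density of the rest. The exact conditional 95% interval of this ratio ran from 0.0936 to 5.31. A difference within these bounds was not detectable with 8 peaks. By covered bases instead of peak number, the ratio was 1.6, with 342 bp covered in the Mmp13 part and 607 bp in the rest. With the dividing line 20 kb lower no peak changed side, and the changed lengths alone gave 1.18. With the line 20 kb higher the lone 98 bp peak, 8.72 kb beyond the line, joined the Mmp13 part and the ratio was 1.4. In the first 50% of the list the ratio was 2.85 and in the last 50% it was 0.569, with 1 peak of the Mmp13 part in each. Among the 3006 tiles of 500 kb with at least 8 peaks, the denser end of 130 kb reached 0.949 times the density of the other 370 kb in 82.1%, with a median ratio of 1.66. The Mmp13 part was set by position, whereas the end of each tile was picked for its density, which raises the tile ratios.

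The whole cluster had 8 peaks in 500 kb, 1.6 per 100 kb (0.691 to 3.15). The median tile of 500 kb held 12, and 43.1% of the 5101 tiles held 8 or fewer. On chromosome 9 the median tile held 20, and 30.7% of 241 tiles held 8 or fewer. The flanks of the cluster differed from each other: the 500 kb below it held 3 peaks, and the 500 kb above it held 25. The cluster thus lay below the median tile but within the common range. Of the 10 Mmp genes in RefSeq order, 8 have TGANTCA before a RefSeq start site, and 7 have TGAGTCA. Whether all 10 lie in the mm9 window, and whether any peak lies at these sequences, was not determined.

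**Figure D2:**
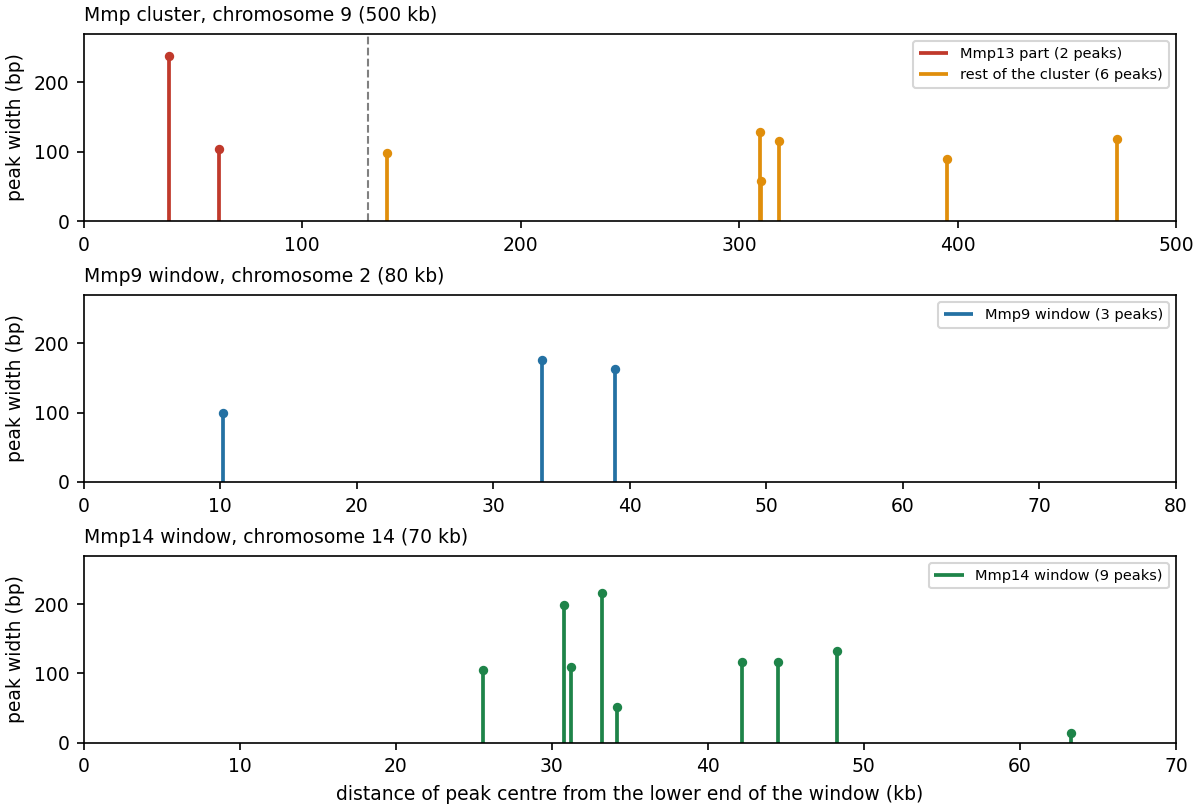
Jun peaks in the 3 windows, by the distance of the peak centre from the lower end of the window (kb) and by peak width (bp, height of each line); the dashed line divides the Mmp13 part from the rest of the cluster. The 8 cluster peaks are scattered over 500 kb, and 8 of the 9 peaks in the Mmp14 window lie within 22.8 kb.

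The Mmp9 window held 3 peaks in 80 kb. They were chr2:164750133-164750232 (100 bp), chr2:164773539-164773714 (176 bp) and chr2:164778814-164778976 (163 bp). The first stood alone within 10 kb and the other 2 formed a pair with 5.27 kb between centres. Both peaks of the pair were wider than the 114 bp median of the list, and 17.9% and 21.2% of all peaks were at least as wide as each. The density was 3.75 peaks per 100 kb (0.773 to 11). Of 31989 tiles of 80 kb, 37.8% held at least 3 peaks, the median held 1 and 40.5% held none.

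In the gene order Mmp9 lies between Zfp335 and Slc12a5, and which of these genes a peak is nearest to was not determined. The peak nearest below the window, chr2:164737232-164737348, was 2.71 kb outside it, and the peak nearest above, chr2:164823765-164823894, was 3.83 kb outside. The 80 kb below the window held 8 peaks and the 80 kb above held 5, so both flanks had more listed peaks than the Mmp9 window itself. After the third peak of the window, 41.1 kb to its upper end were without a peak.

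The Mmp14 window had the highest density of Jun peaks among the MMP windows. Its 9 peaks in 70 kb gave 12.9 per 100 kb (5.88 to 24.4). Of 36563 tiles of 70 kb, 8.56% held at least 9 peaks, the median held 1 and 42.8% held none. Tiles were taken whether or not they hold genes, and those with genes were not compared apart. On chromosome 14 it was 7.14% of 1653 tiles. The density was 8.04 times that of the cluster (exact conditional 95% interval 2.75 to 23.9, counting error only) and 3.43 times that of the Mmp9 window (0.856 to 19.7). The interval against the Mmp9 window includes equal densities. The windows differ in length, but no stretch of 70 kb inside the cluster held more than 3 peaks, a comparison added after seeing the data.

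Of the 9 peaks in the Mmp14 window, 8 formed a group from 55045571 to 55068411, 22.8 kb in all. Of the 38356 groups in the list, made by joining peaks whose centres lie within 10 kb, 5.03% held 8 or more peaks. Lone peaks made up 49.9% of these groups but only 19.3% of all peaks. A share of groups therefore understates how many peaks lie in full groups. The group opened with chr14:55045571-55045675 (105 bp). Then came 4 peaks within 3.53 kb: chr14:55050672-55050870 (199 bp), chr14:55051132-55051241 (110 bp), chr14:55053095-55053310 (216 bp) and chr14:55054150-55054201 (52 bp). The 2 widest peaks of the window, 199 and 216 bp, were both among these 4.

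After a distance of 8 kb the group ended with 3 peaks within 6.3 kb: chr14:55062113-55062229 (117 bp), chr14:55064465-55064581 (117 bp) and chr14:55068279-55068411 (133 bp). The last peak of the window, chr14:55083276-55083289, lay 14.9 kb further on and was only 14 bp wide. That is far below the sheared fragments of 100 to 600 bp, but 36.7% of all peaks were 100 bp or narrower. Only 0.793% of all peaks were 14 bp or narrower. With groups joined at 5 kb, the 8 peaks fell into a lone peak, the set of 4 and the set of 3. At 20 kb all 9 joined 5 further peaks above the window, in a group of 14 over 67.7 kb.

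Both flanks of the Mmp14 window held fewer peaks than the window. The 70 kb below held 2 peaks and the 70 kb above held 7. The nearest outside peaks were chr14:54995666-54995794, 24.3 kb below the lower edge, and chr14:55094835-55094954, 4.89 kb above the upper edge. In the gene order Mmp14 lies between Mrpl52 and Lrp10, and how the 9 peaks divide among these genes was not determined.

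**Figure D3:**
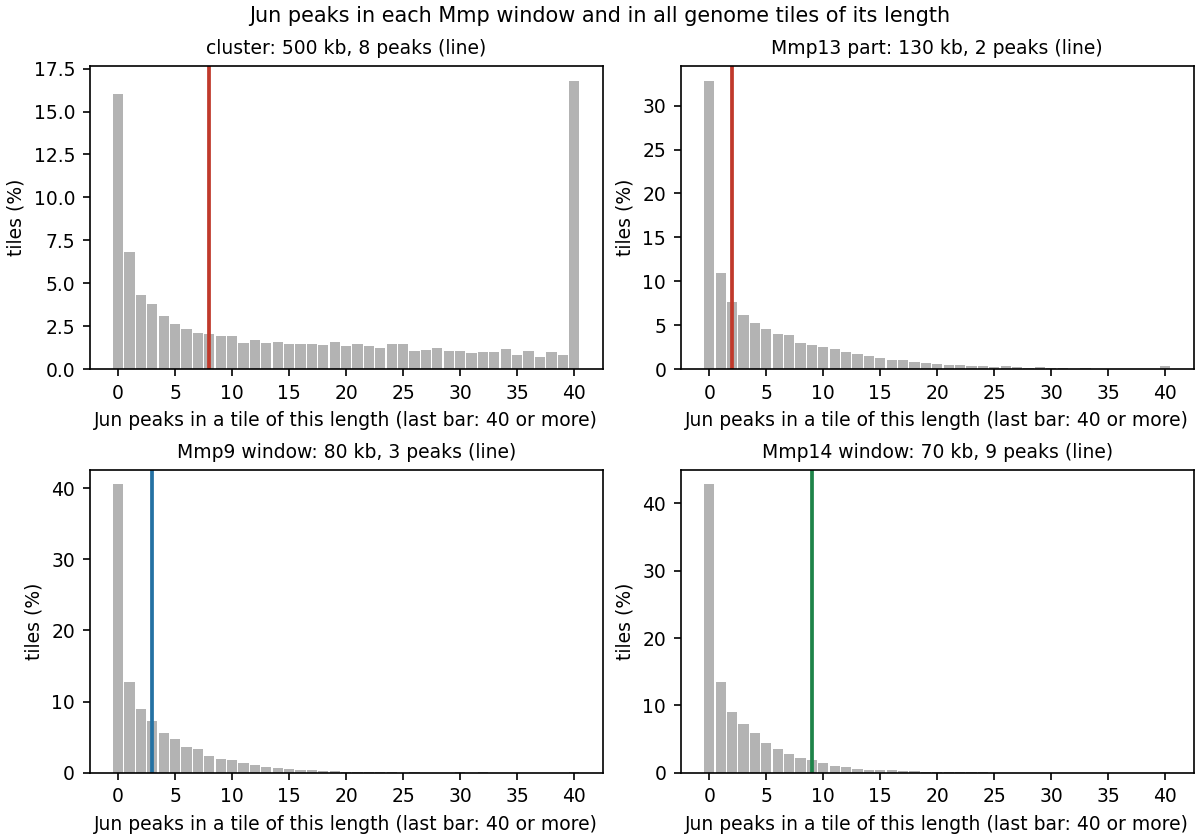
Share of genome tiles (%) by their number of Jun peaks, for tiles of 500, 130, 80 and 70 kb; the coloured line is the Mmp window of that length. The line lies among the common counts for the cluster (8), the Mmp13 part (2) and the Mmp9 window (3), and in the upper tail for the Mmp14 window (9).

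The widths of the 20 peaks were close to those of the list. Their median was 116 bp, from 14 to 238 bp, against a median of 114 bp in the whole list. At least 150 bp was reached by 5 of the 20 (25%) and by 25.7% of all peaks. The 5 were 1 peak of the Mmp13 part, 2 of the Mmp9 window and 2 of the Mmp14 window, whereas the 6 peaks in the rest of the cluster ran from 58 to 128 bp. Of the 20 peaks, 6 (30%) had another peak within 1 kb, against 39.1% of the list, and 4 of these 6 were in the Mmp14 window.

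The peaks were spread over the deposited order of the list, whose meaning is not stated. No Mmp peak was among the earliest rows: the first stood at 16.2% of the list (the lone 98 bp peak of the cluster) and the next at 16.3% (the 117 bp peak at 55064465 in the Mmp14 window). The latest stood at 93.8%, and the median was 49.1%. Of the 2 peaks in the Mmp13 part, the wide peak stood at 22.2% and the narrow peak at 75.9%. The peaks of the Mmp14 window had their median at 37.5%, and the first 25% of the rows held 3 of the 9. The cluster peaks had theirs at 54.1%, and those rows held 2 of the 8.

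**Figure D4:**
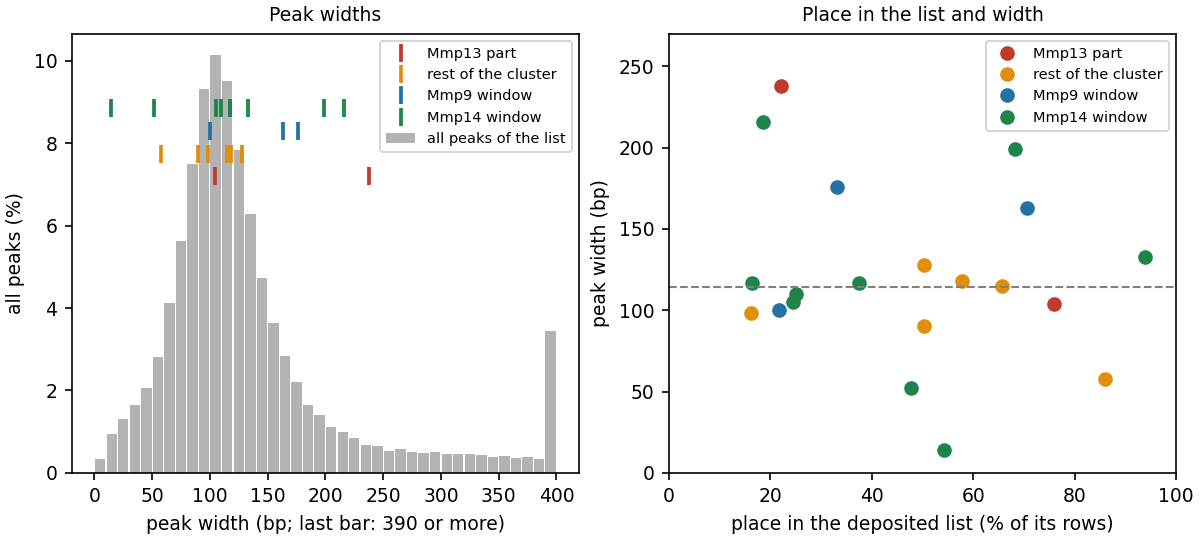
Left, widths of the 20 Mmp peaks (coloured marks, 1 row per window, their height has no scale) over the widths of all 99162 peaks (grey bars, % of peaks). Right, width (bp) of each Mmp peak against its place in the deposited list (% of its rows), with the list's median of 114 bp dashed; the marks spread from 16.2% to 93.8% and on both sides of the median width.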

How the data were processed

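The authors deposited 1 list of Jun peaks with chromosome, start and end on mm9, per the submitters' processing notes, and with no other value. These coordinates are the only unit used. The name of the list carries an FDR mark that nothing explains further. The aligner, the peak caller and the use of the input were not found in the labels, the processing notes or the list, and any of them could change which sites are listed. The list names no sample, and the 1 Jun library of the series is taken as its source.

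Peaks were placed by midpoint, and positions are counted from 1. Tiles were laid end to end between the first and last peak of chromosomes 1 to 19 and X. Intervals are 95% exact Poisson or exact conditional binomial (scipy 1.17.1, numpy 2.4.6, pandas 2.3.3, Python 3.11.15), and since peaks cluster they understate the error. Counting, joining and tiling were tested on simulated data. Motifs were searched in RefSeq promoters of GRCm38.p6 on both strands, and TGAGTCA is contained in TGANTCA. RefSeq gene positions were used for order only. Every peak of the 3 windows is named, as are the peaks nearest their edges. The members, windows and lists were chosen with earlier results of these data known.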

Additional observations from a re-analysis of the deposited data

How the results depend on the processing

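Merging peaks within 1000 bp, keeping peaks of at least 50 bp or counting any overlap with a window moved no window's count by over 1.5 times. In the first 50% of the list the Mmp13 part and the rest of the cluster held 1 peak each. In the last 50% the Mmp13 part held 1, the rest of the cluster 5, the Mmp9 window 1 and the Mmp14 window 3. A count cannot rise when fewer peaks enter, but its division between the parts is not fixed by that. In the rest of the cluster, the peaks starting at 7509744 and 7595325 stood at 50.4% of the list, just past the cut. The share of tiles with at least as many peaks as the Mmp13 part was 54.7% with merged peaks, 55.2% without peaks under 50 bp and 59.8% in the later 50% of the rows. Each share takes the window's own count in that setting as its threshold, so the threshold changes between settings. For the Mmp14 window this count was 7 merged, 8 without peaks under 50 bp, 6 in the earlier 50% and 3 in the later 50%. The alternatives for the next 2 shares were chosen after seeing the data. For the Mmp14 window the share was 9.1% on autosomes only, 7.76% merged, 9.64% without peaks under 50 bp, 5.85% in the earlier 50% of the rows and 19.1% in the later 50%. The share of tiles with at most as many peaks as the cluster was 40.5% on autosomes only, 37% in the earlier 50% of the rows and 50.5% in the later 50%. The cause of the differences between the list's parts was not tested. Tile shares were not run with any overlap. The 20 peaks fell into 10 groups within 10 kb, 14 within 5 kb and 9 within 20 kb. No paired analysis was possible because there is 1 Jun library, and for the same reason no replicate was left out. Because depth is unknown, stretches with no listed peak may still bind Jun.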
